A study of Arabidopsis thaliana with 8 samples.

Results

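The transcripts described here are those of the autoinhibited H+-ATPases (AHA), the proton pumps of the *Arabidopsis thaliana* plasma membrane, in guard cell preparations of heat-stressed and control plants. The 10 genes AHA1 to AHA5 and AHA7 to AHA11 were chosen by their locus, as members of the family, from 25410 loci on the array. Their features were found through the transcript accessions in the scanner output, and 13 of 43603 probes read them. AHA1 (AT2G18960) had 3 probes, AHA2 (AT4G30190) had 2, and AHA3 (AT5G57350), AHA4 (AT3G47950), AHA5 (AT2G24520), AHA7 (AT3G60330), AHA8 (AT3G42640), AHA9 (AT1G80660), AHA10 (AT1G17260) and AHA11 (AT5G62670) had 1 each. By their loci, AHA9 and AHA10 lie on chromosome 1, AHA1 and AHA5 on chromosome 2, AHA4, AHA7 and AHA8 on chromosome 3, AHA2 on chromosome 4, and AHA3 and AHA11 on chromosome 5.

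The study set guard cell transcripts of plants under mild heat against unstressed plants, in the wild type and in a mutant of β-amylase 1 (BAM1), an enzyme that degrades starch in guard cell chloroplasts. The 4 groups of 2 arrays each were bam1 heat, bam1 control, Col-0 heat and Col-0 control. Col-0 is the Columbia wild type, and bam1 is 1 homozygous T-DNA insertion line in that background. All plants were 5 weeks old. Heat-stressed plants were kept at 32 °C by day and 28 °C by night for 3 d, and control plants at 22 °C and 18 °C. Each biological replicate pooled 5 to 8 plants, and the material was the epidermal fraction that remains after leaves are blended, in which guard cells survive.

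The AHA proteins use ATP to pump protons out of the cell. In guard cells the resulting hyperpolarization of the membrane opens inward potassium channels, potassium salts accumulate, water follows, and the pore widens. The pump is held back by its own C-terminal tail. Phosphorylation of the penultimate threonine and binding of a 14-3-3 protein release it, and type 2C phosphatases of clade D reverse this step, so that much of its control lies in the protein and is not read by a transcript array.

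The array measured 1 colour, and the signal given is the fluorescence of a probe after background subtraction. Between 61.2% and 70.8% of the probes on an array were well above background, and precision is limited by there being 2 arrays per group. Signals were set on a log2 scale, quantile-normalized, and tested with limma over 29615 probes; a probe was called at an adjusted p below 0.05 together with a change of more than 2-fold. For a gene with several probes the brightest is given first. The probe of BAM1 read a signal of 155 and 210 in bam1 heat and 108 and 76.2 in bam1 control, against 4297 and 4699 in Col-0 heat and 3531 and 2090 in Col-0 control. The signal was thus lower on every bam1 array than on every Col-0 array, as the labels have it. All 7 heat shock genes used as a check were called higher under heat in each genotype, with a median log2 change of 8.03 in bam1 and 6.35 in Col-0.

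The labelled cell type was examined with markers of guard cells and of other leaf cells. All 12 guard cell markers, among them the potassium channel KAT1, the anion channel SLAC1 and the transcription factor MYB60, were well above background on all 8 arrays. So were all 9 mesophyll markers, all 12 vascular markers and all 6 markers of epidermis and trichomes, so that other leaf cells contributed RNA, and no whole-leaf array was analysed here against which enrichment could be measured. The log2 of the summed normalized signal of the guard cell markers was 15.61 to 15.73 in bam1 heat and 16.16 to 16.49 in bam1 control. It was 15.81 to 15.98 in Col-0 heat and 16.73 to 16.75 in Col-0 control. Both heat groups thus lay below both control groups in this sum, and bam1 control lay below Col-0 control. TGG1, the myrosinase of guard cells and myrosin cells, made up 60.7% to 73.5% of it. Without TGG1, a sum chosen after seeing the data, the ranges were 14.04 to 14.10 in bam1 heat, 14.57 to 14.82 in bam1 control, 13.98 to 14.33 in Col-0 heat and 15.16 to 15.29 in Col-0 control. Single markers varied, and 4 of 12 had positive fitted changes under heat in bam1 and 1 of 12 in Col-0. In such a preparation, fewer cells of a type and less RNA per cell cannot be told apart.

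Transcripts of most pumps were readily measured. The first-given probes of 8 of the 10 genes were well above background throughout, and the exceptions were AHA9 and AHA10. Probes differ in how brightly they bind, so that signals are compared between arrays and not between genes. The AHA3 probe read from 19099 to 44332, the AHA1 probe from 6016 to 13619, the AHA2 probe from 1537 to 3060, the AHA8 probe from 517 to 1528 and the AHA7 probe from 15 to 118.

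**Figure D1:**
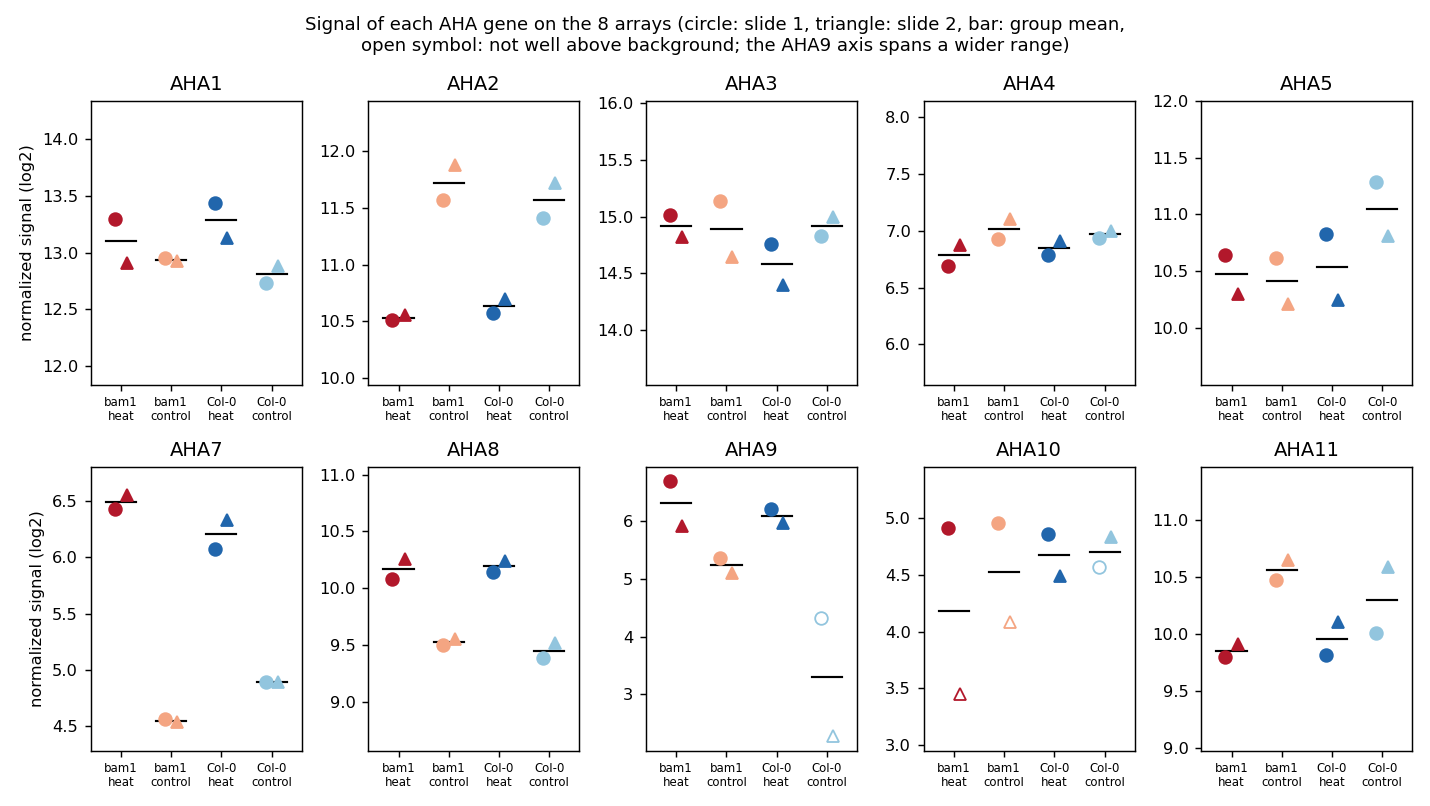
Normalized signal (log2) of the first-given probe of each AHA gene on each array, with bam1 heat, bam1 control, Col-0 heat and Col-0 control from left to right; circles stand for slide 1, triangles for slide 2, open symbols for arrays on which the probe was not well above background, and the bar is the mean of 2 arrays. AHA2 lies lower, and AHA7 and AHA8 higher, on all heat arrays than on all control arrays, while the AHA1 and AHA3 arrays of the conditions overlap.

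Heat against control showed no common direction in the family, nor in the array as a whole. AHA2 lay lower on heat arrays, AHA7, AHA8 and AHA9 lay higher, and AHA1, AHA3, AHA5, AHA10 and AHA11 overlapped between the conditions. AHA4 also lay lower on every heat array, by a small amount. The overlap of AHA3 depended on the scaling, as given below. Over both genotypes, the 4 heat arrays lay wholly above the 4 control arrays for 3 of 10 genes and wholly below for 2 of 10, beside 27.2% and 25.3% of all tested probes. By limma, 1 gene was called higher and 1 lower in bam1, where 22.4% of all tested probes were called, 11% higher and 11.4% lower. In Col-0, 2 genes were called higher and 0 lower, where 21.6% of probes were called, 11.4% higher and 10.2% lower. An unadjusted p below 0.05 was reached by 4 AHA genes in bam1 and 5 in Col-0, beside 46.9% and 46.4% of all probes. The share of the family that was called therefore lay close to that of the array as a whole. The median log2 change of the 10 genes was 0.04 in bam1 and -0.07 in Col-0, beside 0.03 and 0.02 over 18469 genes.

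AHA1, also known as OPEN STOMATA 2, is the best-known pump of guard cells, since dominant mutants in it keep stomata open. Its normalized log2 signal was 13.29 and 12.91 in bam1 heat and 12.95 and 12.92 in bam1 control. In Col-0 it was 13.44 and 13.13 under heat and 12.73 and 12.88 under control conditions. In Col-0 both heat arrays lay above both control arrays, whereas in bam1 1 heat array lay above and the other just below the controls. The log2 change was 0.16 ± 0.19 (SE) in bam1 with an adjusted p of 0.557, and 0.48 ± 0.19 in Col-0 with an adjusted p of 0.103, so AHA1 was called in neither. The 95% intervals, -0.31 to 0.63 in bam1 and 0.01 to 0.94 in Col-0, leave out a change of 2-fold. The other AHA1 probes gave changes of 0.24 and -0.31 in bam1 and of 0.07 and -0.18 in Col-0, and the 3 probes thus did not share a direction. With the arrays scaled to their 75th percentile the first probe changed by -0.09 in bam1, the opposite sign, and by 0.27 in Col-0.

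AHA2, which with AHA1 provides the main pump activity of the plant and is abundant in roots, was the only pump called lower. Its log2 signal was 10.51 and 10.56 in bam1 heat and 11.57 and 11.88 in bam1 control. In Col-0 it was 10.58 and 10.70 under heat and 11.41 and 11.72 under control conditions. The 4 heat arrays thus spanned 0.19 on the log2 scale, and every one lay at least 0.72 below every control array. In bam1 AHA2 fell by 1.19 ± 0.18 (2.28-fold), with an adjusted p of 0.00387 and changes of -1.06 and -1.32 on the slides. In Col-0 the change was -0.93 ± 0.18 (1.90-fold) with an adjusted p of 0.00962, which passed the p threshold and not that of 2-fold. Normalized to the 75th percentile, the Col-0 change was -1.0 with an adjusted p of 0.00861 and was called.

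The second AHA2 probe gave log2 signals of 10.18 and 9.86 in bam1 heat against 11.01 and 10.78 in bam1 control. In Col-0 it gave 10.17 and 9.88 under heat against 10.94 and 11.10 under control conditions. Again no heat array reached a control array. Its changes were -0.88 in bam1 (adjusted p = 0.0141) and -1.0 in Col-0 (adjusted p = 0.00925), and neither was past 2-fold, the Col-0 value by a margin smaller than its rounding. Both probes of AHA2 therefore passed the p threshold in both genotypes at changes close to 2-fold.

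AHA5 and AHA11 are further pumps expressed in leaves, AHA5 also in guard cells. AHA5 had log2 signals of 10.64 and 10.30 in bam1 heat and 10.62 and 10.22 in bam1 control. In Col-0 it had 10.83 and 10.25 under heat and 11.29 and 10.81 under control conditions. The 2 slides stood apart in every group, slide 1 being the higher, and within each slide the Col-0 control array was the highest. The heat change was 0.05 ± 0.29 in bam1 (adjusted p = 0.899) and -0.51 ± 0.29 in Col-0 (adjusted p = 0.211). These standard errors include the spread between slides. Within slides 1 and 2 the change was 0.02 and 0.09 in bam1, and -0.46 and -0.56 in Col-0.

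AHA11 had log2 signals of 9.79 and 9.91 in bam1 heat and 10.48 and 10.65 in bam1 control. In Col-0 it had 9.81 and 10.10 under heat and 10.01 and 10.59 under control conditions. The bam1 groups did not overlap, and the Col-0 groups did. The change of -0.71 ± 0.23 in bam1 (1.64-fold) had an adjusted p of 0.0523, and that of -0.34 ± 0.23 in Col-0 an adjusted p of 0.292.

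AHA3 is known from the companion cells of the phloem. Its log2 signal was 15.01 and 14.82 in bam1 heat and 15.14 and 14.65 in bam1 control, and in Col-0 it was 14.76 and 14.40 under heat and 14.83 and 14.996 under control conditions. The change was 0.02 ± 0.22 in bam1 (adjusted p = 0.947) and -0.34 ± 0.22 in Col-0 (adjusted p = 0.287). Scaled to the 75th percentile, these changes became -0.49 and -0.74, so that in bam1 the sign depended on the scaling. At that scaling every heat array lay below every control array, with the highest heat array at 4.81 and the lowest control array at 4.83. Phloem genes among the vascular markers did not share a direction. SUC2, the sucrose carrier that marks companion cells, fell by 1.28 in bam1 and by 1.34 in Col-0, whereas SWEET12, a sucrose exporter of the phloem parenchyma, rose by 1.71 in bam1 and by 1.88 in Col-0. SWEET11 changed by 0.97 in bam1 and rose by 1.33 in Col-0, and PP2-A1 (0.14 in bam1, -0.10 in Col-0) and APL (0.51 in bam1, -0.02 in Col-0) were not called. Whether companion cells took part in the AHA3 values was not tested.

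**Figure D2:**
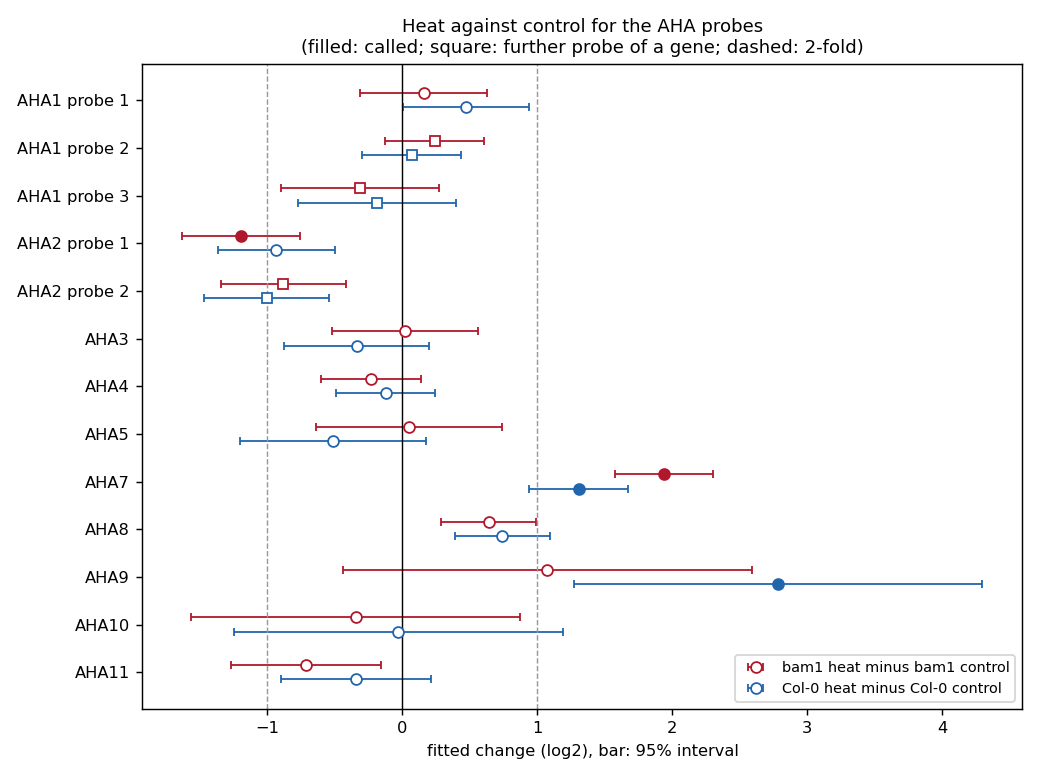
Fitted log2 change under heat for each of the 13 AHA probes, bam1 above Col-0, with the 95% interval of limma; filled symbols were called and squares are further probes of AHA1 and AHA2. AHA7 lies to the right of the 2-fold line in both genotypes, the AHA2 probes lie around the 2-fold line on the left, and the AHA1 intervals reach or nearly reach 0; the AHA9 point of Col-0 is a fitted value against controls that were not well above background.

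AHA7, which in roots acts in root hairs, was the only pump called in both genotypes. Its log2 signal was 6.43 and 6.55 in bam1 heat and 4.57 and 4.54 in bam1 control. In Col-0 it was 6.08 and 6.32 under heat and 4.89 and 4.90 under control conditions. Heat and control arrays were far apart compared with the spread of replicates. The order was bam1 heat, Col-0 heat, Col-0 control and bam1 control with no overlap between neighbours. The 2 heat groups were only 0.10 apart, less than the range of bam1 heat (0.12) or Col-0 heat (0.25). AHA7 rose by 1.94 ± 0.15 in bam1 (3.83-fold, adjusted p = 0.00046), and by 1.31 ± 0.15 in Col-0 (2.47-fold, adjusted p = 0.00167). The signal itself was dim, at 118 and 94.2 in bam1 heat and 22.9 and 15 in bam1 control, and at 96.0 and 78.3 in Col-0 heat and 28.6 and 29.5 in Col-0 control. With normexp background correction and its offset of 50, which compresses dim signals, the changes were 0.66 in bam1 and 0.44 in Col-0, both under 2-fold.

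AHA8 and AHA9 are known from pollen and anthers. AHA8 had log2 signals of 10.08 and 10.26 in bam1 heat and 9.50 and 9.56 in bam1 control. In Col-0 it had 10.14 and 10.24 under heat and 9.39 and 9.52 under control conditions. Every heat array lay above every control array, and within a condition the genotypes overlapped. The changes were 0.64 ± 0.15 in bam1 (1.56-fold, adjusted p = 0.0162) and 0.74 ± 0.15 in Col-0 (1.67-fold, adjusted p = 0.0101), past the p threshold and short of 2-fold. Although AHA8 is described as a pollen gene, its probe was well above background on every array, with signals of 1412 and 1248 in bam1 heat, 683 and 517 in bam1 control, 1528 and 1227 in Col-0 heat and 629 and 632 in Col-0 control.

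AHA9 was near the limit of detection. Its signal was 142 and 60.3 in bam1 heat and 40.2 and 21.9 in bam1 control. In Col-0 it was 104 and 60.0 under heat and 18.9 and 6.3 under control conditions, and on neither Col-0 control array was it well above background. Every heat array exceeded every control array. In Col-0 AHA9 was called higher by limma (adjusted p = 0.0161), in a fit to the control values as normalized. With control values raised, where lower, to the lowest signal of any probe detected on their array, it was 3.06-fold higher under heat. This floored value was not itself tested and is not a strict lower bound. On Col-0 control replicate 1 AHA10 was not well above background at a log2 signal of 4.57, above the 4.33 of AHA9. The call was lost when Col-0 heat replicate 1 or 2 was left out. In bam1 the log2 change was 1.07 ± 0.63 with an adjusted p of 0.228 by limma. This standard error draws on all 4 groups and is not the spread of the bam1 arrays alone. The SD of the log2 signal was 1.45 in Col-0 control, 0.17 in Col-0 heat, 0.55 in bam1 heat and 0.18 in bam1 control. AHA9 was called in bam1 when Col-0 control replicate 1 or 2 was left out.

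AHA4 and AHA10 are best known from other organs, AHA4 from the root endodermis and AHA10 from the seed coat. AHA4 had log2 signals of 6.69 and 6.88 in bam1 heat, 6.93 and 7.10 in bam1 control, 6.79 and 6.91 in Col-0 heat and 6.94 and 7.0 in Col-0 control. All heat arrays lay below all control arrays, by as little as 0.02, and the changes of -0.23 ± 0.15 in bam1 and -0.12 ± 0.15 in Col-0 had adjusted p values of 0.284 and 0.577. The signal of AHA10 lay between 11.3 and 42.5, and it was not well above background on bam1 heat replicate 2, bam1 control replicate 2 and Col-0 control replicate 1. Its changes of -0.34 ± 0.51 in bam1 and -0.03 ± 0.51 in Col-0 had 95% intervals of -1.56 to 0.88 and -1.24 to 1.19, so that a 2-fold fall in bam1, and a 2-fold change either way in Col-0, lay within the interval.

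**Figure D3:**
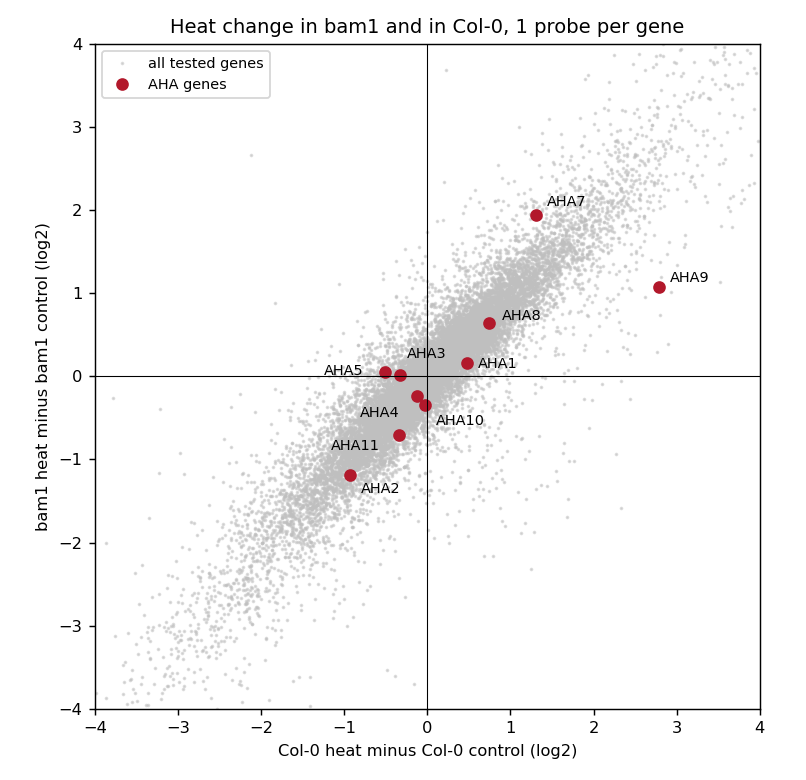
Fitted log2 change under heat in bam1 (vertical) and in Col-0 (horizontal), with 1 probe per gene; grey points are the 18469 tested genes, of which 190 lie outside the axes, and red points are the AHA genes. AHA7 and AHA8 lie at the upper right and AHA2 at the lower left, within the grey cloud, and AHA9 lies to its right. The horizontal position of AHA9 is a fitted value against Col-0 controls that were not well above background, and its floored value is 3.06-fold.

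The comparison of bam1 with Col-0 asked whether the loss of the amylase altered the pumps. No AHA gene was called in either condition. Under heat both bam1 arrays lay above both Col-0 arrays for 2 genes, AHA3 and AHA7, and below for AHA2, beside 12.8% and 16.3% of all tested probes. Under control conditions they lay above for AHA1 and AHA9 and below for AHA5 and AHA7, beside 13.6% and 11.7%. These are the first-given probes. Under control conditions the first AHA1 probe lay above by 0.04, the second lay below by 0.02 and the third overlapped. Under heat the second AHA2 probe overlapped. On these arrays AHA7 was thus below Col-0 in unstressed plants and above it under heat, with unadjusted p values of 0.062 and 0.101 in limma. No gene lay on the same side of Col-0 in both conditions, for which no share of all probes is given here. Under heat the log2 differences ran from -0.49 for AHA10 to 0.34 for AHA3, and 0 genes were below an unadjusted p of 0.05, beside 3.27% of all probes. Under control conditions they ran from -0.63 for AHA5 to 0.27 for AHA11 among the 9 genes other than AHA9. The probe of AHA9 was not well above background in Col-0 control, and only a floored value is given for it there. AHA9 was the 1 gene below an unadjusted p of 0.05 in limma, beside 4% of all probes. Over the whole array 0.00338% of probes were called under control conditions and 0% under heat, so that few calls were made anywhere in these comparisons. BAM1 itself, with differences of -4.72 under heat and -4.66 under control conditions, had adjusted p values of 0.134 and 0.0881 and was not called, so a missing call says little about whether a gene differed.

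For the pumps of main interest in guard cells no difference between genotypes was shown. AHA1 differed by -0.18 ± 0.19 under heat and 0.13 ± 0.19 under control conditions, with 95% intervals of -0.65 to 0.28 and -0.34 to 0.60. AHA2 differed by -0.10 ± 0.18 and 0.16 ± 0.18, with intervals of -0.54 to 0.33 and -0.28 to 0.59. For both genes a difference of 2-fold lay outside the interval. The other AHA1 probes differed by 0.02 and -0.22 under heat and by -0.15 and -0.09 under control conditions. The second AHA2 probe differed by -0.005 under heat and -0.13 under control conditions. For AHA5 the difference under control conditions was -0.63 ± 0.29, with both bam1 arrays below both Col-0 arrays and an interval of -1.32 to 0.06, while under heat it was -0.07 ± 0.29. All 12 guard cell markers also had lower fitted values in bam1 control than in the Col-0 control group, with a median of -0.64, 0 called by limma and 6 below an unadjusted p of 0.05, and the part of this in the AHA5 value was not tested. By the same kind of floored value as above, not itself tested and no strict lower bound, AHA9 in bam1 control was 1.69-fold higher. The limma fit, made without this floor, gave an adjusted p of 0.99975, and AHA9 was not called.

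**Figure D4:**
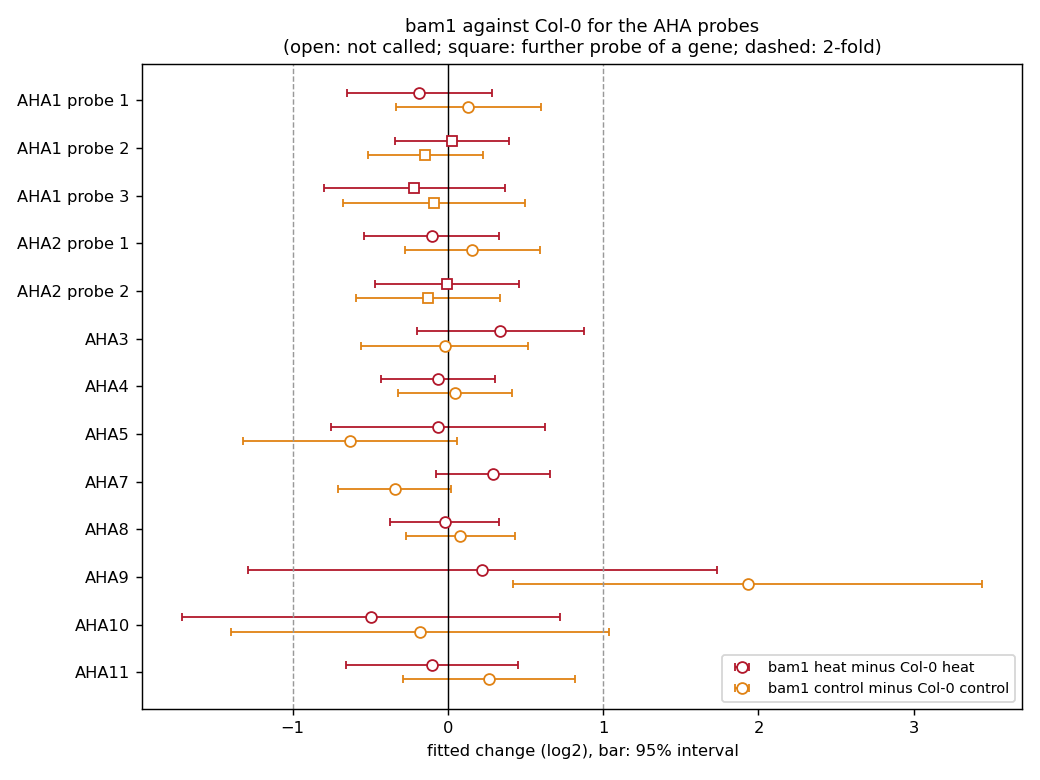
Fitted log2 difference of bam1 from Col-0 under heat (upper point of each pair) and under control conditions (lower point), with the 95% interval of limma, for the 13 AHA probes; no probe was called. The AHA9 and AHA10 intervals are the widest, and the AHA9 point under control conditions is a fitted value against Col-0 arrays that were not well above background.

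The difference of the heat responses, bam1 minus Col-0, was tested as an interaction. It was 0.63 ± 0.21 for AHA7, with an interval of 0.12 to 1.15 and changes of 0.68 and 0.59 on the slides. Over all probes the adjusted p was 0.99949. Relative to Col-0, the AHA7 values of bam1 differed by 0.29 under heat and by -0.34 in unstressed plants. For AHA5 the interaction was 0.56 ± 0.41, for AHA2 -0.26 ± 0.26 and for AHA1 -0.32 ± 0.28. The second AHA2 probe gave 0.12, and the other AHA1 probes gave 0.17 and -0.13, so the probes of these genes did not share a direction. For AHA9, undetected in Col-0 control, no value is given. By limma 0 AHA genes were called, where 0.00338% of all probes were. An unadjusted p below 0.05 was reached by 1 AHA gene and by 2.75% of all probes. A difference between bam1 and Col-0 in the response of the pumps to heat was thus not shown with 2 arrays per group.

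The patterns across the 8 arrays were compared as a description, since the arrays share the heat treatment, under which much of the array moved. Among 18378 genes, the profile of AHA2 was closest to those of AT1G74300, the phosphomannomutase PMM and AT4G08850, each with a Pearson r of 0.998. The profile of AHA7 was closest to those of AT5G61820, ECT1 and LOH1 (r = 0.996, 0.995 and 0.995), and that of AHA1 to STT3A, AT1G63430 and UBP23 (r = 0.978, 0.972 and 0.969). Within the family AHA7 and AHA8 ran most closely together (r = 0.955), followed by AHA2 and AHA11 (r = 0.905), while AHA2 ran opposite to AHA7 (r = -0.969) and AHA8 (r = -0.919).

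Genes that act on the pump protein were listed by their published role. Among 11 activators, which include the phototropins and the blue light kinase BLUS1, 1 was called higher and 0 lower in each genotype, with a median log2 change of -0.04 in bam1 and -0.22 in Col-0, beside 11% and 11.4% of all probes called higher. The called gene was the chaperone DNAJ-J3, which in roots represses an inhibitory kinase of the pump, with changes of 1.16 in bam1 and 1.04 in Col-0. Scaled to the 75th percentile it changed by 0.77 and 0.71 and was not called. BLUS1, an early step of blue light signalling in guard cells, changed by -0.44 in bam1 (adjusted p = 0.414) and by -1.13 in Col-0 (adjusted p = 0.0627). RIN4, which binds AHA1 and AHA2 in guard cells, changed by 0.27 in both genotypes, and PATROL1, which moves AHA1 to the plasma membrane, by -0.43 in bam1 and -0.22 in Col-0, and neither was called.

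Among 11 inhibitors, 1 was called lower in bam1, 2 in Col-0, and 0 higher in either, with medians of -0.57 in bam1 and -0.48 in Col-0. These counts stand beside 11.4% and 10.2% of all probes called lower. PP2C.D1, a clade D phosphatase of the group that dephosphorylates the pump, fell by 1.84 in bam1 (adjusted p = 0.000985) and by 1.58 in Col-0 (adjusted p = 0.00172). PP2C.D8 changed by -0.41 in bam1 and fell by 1.101 in Col-0 (adjusted p = 0.0353). The kinase CIPK11, which inhibits AHA2 in roots, changed by -0.12 in bam1 and -0.23 in Col-0. Of the SAUR19 subfamily, small auxin-induced proteins that inhibit the clade D phosphatases, 5 of 6 genes were tested and 0 were called by limma or below an unadjusted p of 0.05, with medians of -0.55 in bam1 and -0.19 in Col-0. All 5 had lower fitted values in bam1 than in Col-0 in both conditions, with medians of -0.86 under heat and -0.50 under control conditions. Of these, 0 were called in either condition, and 1 under heat and 0 under control conditions were below an unadjusted p of 0.05.

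The 14-3-3 proteins, which bind the phosphorylated tail, were represented by 10 tested genes of 13. GRF11 fell in both genotypes, by 1.11 in bam1 and by 1.21 in Col-0 (adjusted p = 0.00413), and 0 were called higher. In bam1 GRF2 was also called lower, by 1.01, and it is named because the count is small. These calls stand beside 11.4% of all probes called lower in bam1 and 10.2% in Col-0. The medians of the 10 genes were -0.45 in bam1 and -0.33 in Col-0.

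The proton pumps of the vacuolar membrane, which acidify the vacuole and not the cell wall, were set beside the AHA genes. Of 26 tested genes of 27, 2 were called higher and 2 lower in bam1, and 2 higher and 1 lower in Col-0. Their medians were -0.49 in bam1 and -0.43 in Col-0. Of all tested probes, 11% were called higher and 11.4% lower in bam1, and 11.4% and 10.2% in Col-0. The stalk subunit VHA-E3 rose by 3.02 in bam1 and by 3.17 in Col-0 (adjusted p = 0.000966), and VHA-G3 rose by 1.58 in bam1 and by 1.53 in Col-0 (adjusted p = 0.0024). VHA-G2 fell by 1.14 in bam1 and by 1.15 in Col-0 (adjusted p = 0.0106), and VHA-F, named because the count is small, fell by 1.11 in bam1. AVP1, the pyrophosphatase of the vacuole, changed by -0.39 in bam1 and 0.12 in Col-0. Scaled to the 75th percentile, 6 of these genes were called in bam1 and 4 in Col-0, and the share of all probes called at that scaling is not given here.

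**Figure D5:**
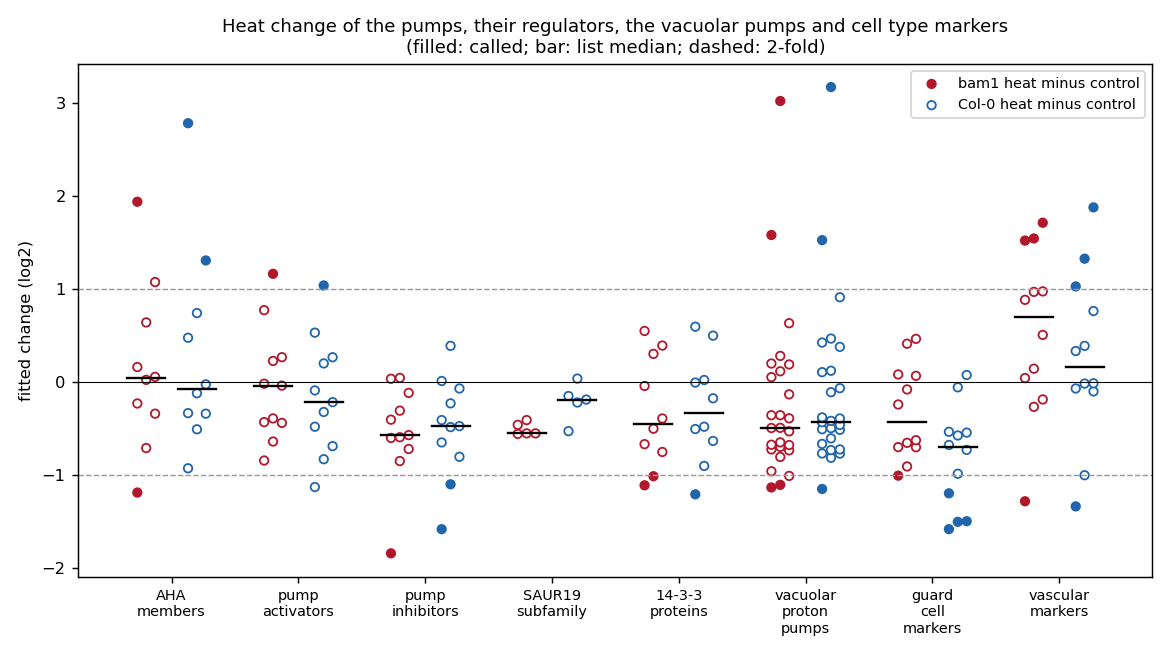
Fitted log2 change under heat of each tested gene in bam1 (left of each pair) and Col-0 (right), grouped as AHA genes, activators and inhibitors of the pump, SAUR19 subfamily, 14-3-3 proteins, vacuolar proton pumps, guard cell markers and vascular markers; filled symbols were called and bars are medians. The medians of the AHA genes lie at 0.04 and -0.07, and those of the inhibitors, 14-3-3 proteins, vacuolar pumps and guard cell markers lie below 0 in both genotypes.

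Some markers of cell types were also called under heat. Of 12 guard cell markers, 1 was called lower in bam1 and 4 in Col-0, and 0 higher, with medians of -0.43 in bam1 and -0.70 in Col-0, beside 11.4% and 10.2% of all probes called lower. In Col-0 these were KAT1, SLAC1, the kinase HT1 and the cutin enzyme CYP86A2. Of 12 vascular markers, 3 were called higher and 1 lower in each genotype, with medians of 0.70 in bam1 and 0.16 in Col-0. Of all probes, 11% were called higher in bam1 and 11.4% in Col-0. The log2 of the summed normalized signal of these markers was 16.60 to 16.84 in bam1 heat and 16.55 to 16.69 in bam1 control. It was 16.76 to 16.91 in Col-0 heat and 16.53 to 16.98 in Col-0 control, so that this sum overlapped between the conditions. Of 9 mesophyll markers 2 were called lower in each genotype and 0 higher, with medians of -0.22 in bam1 and 0.03 in Col-0. Of 6 markers of epidermis and trichomes 0 were called in bam1, with 2 below an unadjusted p of 0.05 in limma, and 1 was called lower in Col-0. The change of AHA2 had the sign of the median guard cell marker in both genotypes, and those of AHA7 and AHA8 had the opposite sign. The part of the makeup of the preparations in the AHA changes was not tested.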

How the data were processed

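RNA (200 ng) of 8 guard cell preparations was labelled with Cy3 and hybridized in 1 colour to Agilent Arabidopsis arrays. The authors deposited the scanner output (Feature Extraction 11.5.1.1), which holds for each spot an intensity after background subtraction, besides its median and local background intensities, and a log2 table of the same arrays. Of that deposited log2 table, 99.7% of values differed by less than 0.05 from log2 intensities scaled to the array's 75th percentile and centred on each probe's median. The paper's text describes drought arrays, and its methods were taken as the nearest stated.

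Control spots and outlier spots were left out and spots of 1 probe averaged. Quantile normalization of the log2 intensities preceded a limma fit (version 3.58.1, R 4.3.3) of 4 group means to all 8 arrays, with 4 residual degrees of freedom. Probes entered the test when both arrays of some group were well above background (29615), and the Benjamini-Hochberg adjustment ran over these. Calls needed an adjusted p below 0.05 and more than 2-fold. Genes were named through transcript accessions, which matched 34348 of 43603 probes. Replicates were separate pools of plants.

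The replicate number marks the slide. Deviations of same-numbered arrays from their group means correlated in all 6 pairs of groups (r from 0.28 to 0.63). The slide was therefore taken to pair arrays in 1 alternative fit, the replicate block. The main fit had no slide term, so the standard errors, intervals and p values given in the results are unpaired. The fit was tested on simulated data. Alternatives were 75th percentile scaling, the authors' log2 table, normexp with an offset of 50, other filters on dim probes, the replicate block, only the groups compared, trend and robust options, no fold limit, any probe of a gene, omission of each array and the methods' t-test.

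All AHA genes are named. From each list of regulators, up to 3 called genes with the largest change in Col-0 are named, beside RIN4, PATROL1, BLUS1, AVP1 and CIPK11. The genes and lists were chosen with earlier results of these data known. Sequences of the probes were not used here, so binding of related pump transcripts to a probe was not examined.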

Additional observations from a re-analysis of the deposited data

Results flagged for a closer look

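For 5 AHA genes, the fitted effects ran in opposite directions on both slides, either the effect of the genotype under heat and under control conditions or the effect of heat in bam1 and in Col-0. The share of all probes that met this rule is not given here, so the count is no result about the pumps. The difference of the heat responses, bam1 minus Col-0, was -0.32 for AHA1, -0.26 for AHA2, 0.56 for AHA5, 0.63 for AHA7 and -0.37 for AHA11 on the log2 scale. Each was tested by limma, and the adjusted p was 0.9995 for each of the 5, so none passed. By the first-given probes, AHA7 and AHA5 were higher in the response of bam1, and AHA1, AHA2 and AHA11 lower, on 2 of 2 slides. The second AHA1 probe was instead higher on both slides (0.14 and 0.20). The third AHA1 probe (-0.56 and 0.30) and the second AHA2 probe (-0.05 and 0.30) differed in sign between the slides.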

How the results depend on the processing

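Counts of AHA genes called under heat were 2 in each genotype. In bam1 they were 0 with normexp and 0 by the methods' t-test with Benjamini-Hochberg adjustment, and from 2 to 3 when 1 array was left out. In Col-0 they were 0 with normexp, 1 with only probes detected on all 8 arrays, 4 with no fold limit (AHA2, AHA7, AHA8 and AHA9), 1 by the methods' t-test and 0 by that test after Benjamini-Hochberg, and from 1 to 3 when 1 array was left out. The count was 1 without Col-0 heat replicate 1 or 2, where AHA9 was lost, and 3 without Col-0 control replicate 1, where AHA2 changed by -1.08. With the replicate block, which pairs arrays by slide, the counts were 2 and 2, and 0 in the comparisons of genotypes and of responses, so it changed no call. Those comparisons gave 0 in every other setting run. Of 818 values recomputed for single genes, 763 kept their sign and their call, 10 lost a call, 5 gained one, and 40, all uncalled, changed sign. No called value changed sign. AHA7 rose by 1.88 to 2.00 in bam1 and by 1.18 to 1.43 in Col-0 when 1 array was left out, and AHA2 changed by -1.34 to -1.04 in bam1 and -1.08 to -0.78 in Col-0. With normexp the AHA2 change in bam1 was -0.92 (adjusted p = 0.000902), and in that setting the calls of AHA2, AHA7 and AHA9 were lost through the 2-fold limit, their adjusted p values being 0.0395 or lower. Signals of AHA7, AHA9 and AHA10 lay closest to background.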
